A study of Mus musculus with 3 samples.

Results

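The interleukin-10 and interleukin-27 axis was taken as 6 genes: Il10, Il10ra and Il10rb, which encode interleukin-10 (IL-10) and the chains of its receptor, and Il27, Ebi3 and Il27ra, which encode the subunits of interleukin-27 (IL-27) and its specific receptor chain. They were chosen by gene name, as the probes whose RefSeq accession belongs to these symbols. All 6 were on the array with 1 probe each, out of 20660 genes with a named probe. Of the 6, 5 passed the filter on dim probes and were tested among 13181 genes, and Il27ra did not pass it.

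The cells were macrophages grown from the bone marrow of C57BL/6J mice, matured in medium with 30% supernatant of L929 fibroblasts, a source of the growth factor CSF-1. They were kept for 24 h in medium with 0.1% serum and were then left untreated or stimulated for 18 h with adiponectin, a hormone of fat cells, at 12 µg/ml. Both groups had the same strain, maturation and serum, and differed in adiponectin alone, as far as the labels say. The RNA extraction text gives the dose per ml in mg, whereas the treatment text and the sample characteristics give µg, which is used here. Each of 3 Agilent 2-colour arrays held 1 treated and 1 untreated RNA, which gave 3 ratios of treated over untreated. The treated RNA carried Cy3 on replicates 1 and 3 and Cy5 on replicate 2. Per the labels these are biological replicates, with no statement whether they came from separate mice.

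IL-10 is the main secreted inhibitor of inflammatory cytokine production by macrophages. It is made by macrophages themselves late after activation, and it binds IL-10Rα, which pairs with the shared chain IL-10Rβ and signals through JAK1, TYK2 and STAT3. IL-27 is a heterodimer of the p28 subunit, encoded by Il27, and EBI3, released by activated macrophages and dendritic cells, and it signals through IL-27Rα and gp130, with STAT3 among its factors. IL-27 is known to raise IL-10 output of T cells, and EBI3 can also pair with the p35 subunit of IL-12 to form IL-35.

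The transcripts of all 3 secreted subunits rose in treated macrophages and those of both IL-10 receptor chains fell. Il27 was 8.30-fold higher, Ebi3 3.89-fold higher and Il10 2.36-fold higher, while Il10ra was 1.73-fold lower and Il10rb 1.78-fold lower. The test was limma, a linear model with variances shared across genes. P-values were adjusted by Benjamini-Hochberg over all 13181 genes, and a call means an adjusted p below 0.05. The count for the axis was thus 3 called higher, 2 called lower and 1 not tested. This has to be read against a very broad response, since 70.6% of all tested genes were called, 24.5% higher and 46.1% lower. The direction of the receptor chains was thus the more frequent one among called genes. By size, Il27 ranked 79, Ebi3 266 and Il10 648 from the top of the 13181 log2 ratios, while Il10rb ranked 2368 and Il10ra 2559 from the bottom. In RNA of whole cultures, a lower level per cell and fewer cells with the transcript cannot be told apart.

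**Figure D1:**
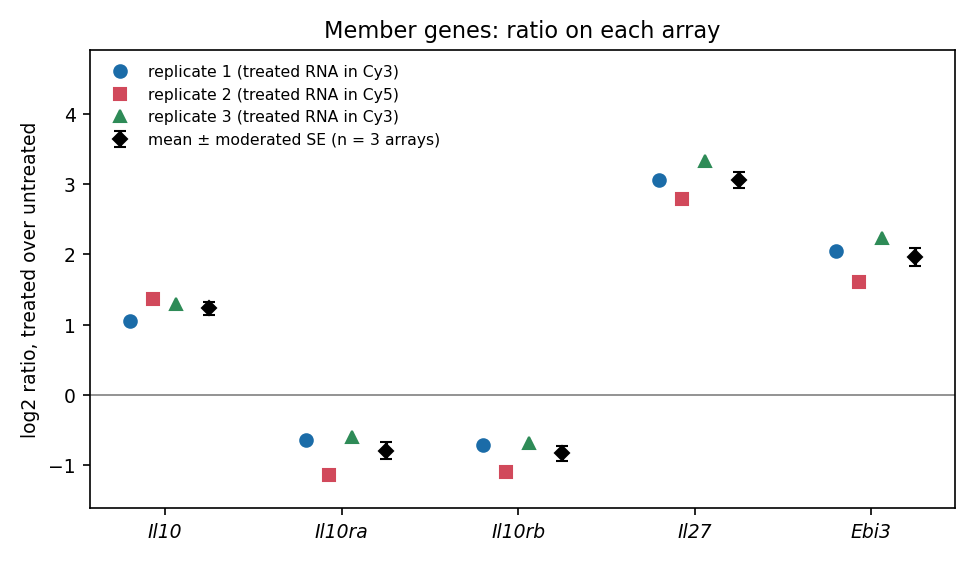
The log2 ratio of treated over untreated (vertical axis) is plotted for each of the 5 tested genes on each array, with the mean and limma's moderated standard error (SE) over 3 arrays as a black diamond with bars. All points of Il10, Il27 and Ebi3 lie above 0 and all points of Il10ra and Il10rb below 0, and the dye-swapped replicate 2 is the lowest point for every gene but Il10.

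Il27 encodes p28, the subunit that is unique to IL-27. On the normalized log2 scale of a single dye channel, its level was 11.91, 11.80 and 12.13 in treated RNA of replicates 1, 2 and 3, and 8.86, 9.01 and 8.81 in untreated RNA. Every treated value was thus above every untreated one, with an SD of 0.17 among treated and 0.11 among untreated values (n = 3). How many of all tested genes separate in this way was not counted, and 70.6% of them were called. The separation, here and for Ebi3, Il10, Il10ra and Il10rb, is therefore a description only. The log2 ratios of the 3 arrays were 3.05, 2.78 and 3.33, lowest on the dye-swapped array. Their mean was 3.05 ± 0.11 (SE, n = 3), with a 95% interval of 2.80 to 3.31 and an adjusted p of 1.62e-07 in limma. The probe was clearly lit in both groups, with a spot brightness between 14.6 and 76.6 times that of its local background.

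Ebi3 encodes the receptor-like subunit that binds p28 in IL-27. Its channel level was 16.09, 15.57 and 16.17 in treated RNA and 14.04, 13.97 and 13.94 in untreated RNA of replicates 1, 2 and 3. The groups did not overlap, and the untreated values lay closer together (SD 0.052) than the treated ones (SD 0.33). The log2 ratios were 2.05, 1.60 and 2.23, again lowest on the dye-swapped array. The mean was 1.96 ± 0.12 (SE, n = 3), with a 95% interval of 1.68 to 2.24 and an adjusted p of 2.12e-06 in limma. Its spots were 515 to 1303 times as bright as their background.

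The subunits of IL-27 moved by different amounts on each array. The log2 ratio of Il27 exceeded that of Ebi3 by 1.00, 1.18 and 1.09, a mean of 1.09 with an SD of 0.090. In all 3 arrays the gap had the same sign. An exact two-sided sign-flip test over 3 arrays can give no p under 0.25, which is the value it gave here, or 0.333 after adjustment over the 4 pairs of genes compared. The size of the gap depends on the processing. With the scanner software's own log ratio, the means of Il27 and Ebi3 were 3.40 and 1.93. With arrays only centred on their median, they were at 1.39 and 0.21 on replicate 1, 2.81 and 2.33 on replicate 2, and 1.43 and 0.19 on replicate 3.

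Ebi3 was the 1 member of 6 with an entry in the RefSeq promoter table (assembly GRCm38.p6), so its promoter is shown beside the rise of its transcript. The window is the 250 bases before its start, on the plus strand at chr17:55952373-55952622. Capitals mark the stretch that matches GGGNNNNNCC, a loose pattern of NF-kB sites, searched on both strands.

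Ebi3: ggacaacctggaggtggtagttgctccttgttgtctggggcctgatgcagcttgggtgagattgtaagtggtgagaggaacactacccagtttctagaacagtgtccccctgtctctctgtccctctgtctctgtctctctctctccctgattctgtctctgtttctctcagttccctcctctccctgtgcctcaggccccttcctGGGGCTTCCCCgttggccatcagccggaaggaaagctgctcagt

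The marked stretch lies 44 to 34 bases before the start and holds 4 overlapping matches, 2 on each strand. The pattern is common: 45.8% of the 32851 promoters in the table hold it in a window of this length. No match was found for TTCNNNGAA, a STAT pattern present in 7.02% of promoters, for TGACG, the core of cAMP-response sites, present in 17.8%, for GAAANNGAAA, an interferon-response-like pattern present in 2.98%, or for TGANTCA, an AP-1 pattern present in 6.75%. A match describes letters and is not a measured binding site.

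Il10 encodes the cytokine itself. Its channel level was 8.42, 8.73 and 8.51 in treated RNA and 7.37, 7.37 and 7.22 in untreated RNA of replicates 1, 2 and 3. The lowest treated value was about 1 log2 unit above the highest untreated one, so the groups did not overlap. The log2 ratios were 1.05, 1.36 and 1.30, and for this gene the dye-swapped array was the highest. The mean was 1.24 ± 0.092 (SE, n = 3), with a 95% interval of 1.03 to 1.45 and an adjusted p of 5.68e-06 in limma.

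The Il10 probe was printed 10 times on each array, which gives a direct view of the spread between spots. After outlier spots were left out, 7 spots of replicate 1 ranged from 0.95 to 1.19 (SD 0.088), 10 of replicate 2 from 1.22 to 1.56 (SD 0.12) and 10 of replicate 3 from 1.06 to 1.57 (SD 0.17). All of these spots lay above 0. They are repeats of 1 hybridization and were averaged to 1 value for each array.

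**Figure D2:**
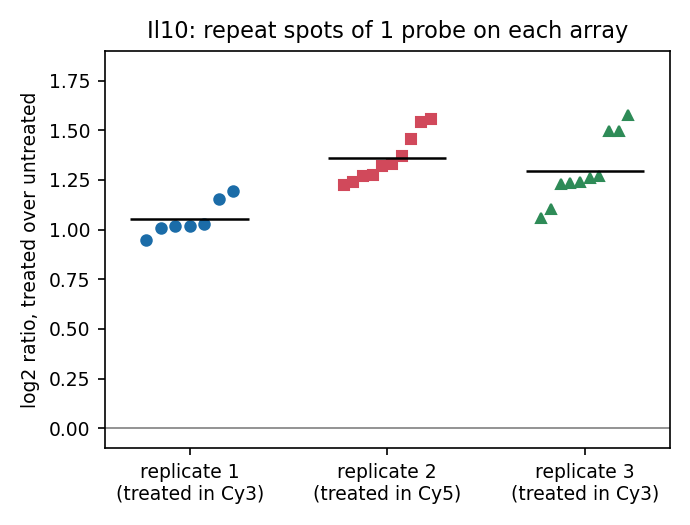
The log2 ratio of each used Il10 spot (vertical axis) is plotted by array, ordered by value within the array, with the array mean as a bar. The spots of an array differ by up to about 0.5 and every spot lies above 0, the lowest at 0.95.

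Il10 was also dim, and its ratio moved with the treatment of the background. Its spots were 4.14 to 7.79 times as bright as their local background. The ratio was 1.76 with the same background model and an offset of 0, 1.38 with no background correction and 1.91 with the scanner software's own log ratio, against 1.24 here. The authors' deposited log2 table gave 1.47. The rise was called under each of these, and its size is therefore less firm than that of Il27 or Ebi3, whose ratios ranged from 2.92 to 3.40 and from 1.83 to 2.14 over all alternatives other than median centring.

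Among the secreted subunits the order of the ratios was Il27, Ebi3 and Il10 on each of the 3 arrays. Il27 exceeded Il10 by 2.00, 1.42 and 2.03 log2 units (mean 1.82, SD 0.34). Ebi3 exceeded Il10 by 1.00, 0.24 and 0.94 (mean 0.73, SD 0.42), with the smallest gap on the dye-swapped array. Both comparisons had the smallest exact sign-flip p that 3 arrays allow, 0.25, or 0.333 adjusted over the 4 pairs. With the scanner software's log ratio, the means of Ebi3 and Il10 were 1.93 and 1.91, so the gap between these neighbours depends on the background treatment.

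Il10ra encodes the ligand-binding chain of the IL-10 receptor. Its channel level was 11.29, 11.03 and 11.40 in treated RNA and 11.93, 12.17 and 11.99 in untreated RNA of replicates 1, 2 and 3. All treated values were below all untreated ones. The log2 ratios were -0.63, -1.14 and -0.60, so the dye-swapped array showed the largest difference. The mean was -0.79 ± 0.12 (SE, n = 3), with a 95% interval of -1.06 to -0.52 and an adjusted p of 0.000347 in limma.

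Il10rb encodes the second chain, which the receptors of IL-22 and of the lambda interferons also use. Its channel level was 11.42, 11.40 and 11.55 in treated RNA and 12.12, 12.49 and 12.24 in untreated RNA. The groups again did not overlap. The log2 ratios were -0.70, -1.09 and -0.69, and their mean was -0.83 ± 0.10 (SE, n = 3), with a 95% interval of -1.06 to -0.59 and an adjusted p of 0.000116 in limma.

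The receptor chains differed little in how far they fell. The log2 ratio of Il10ra minus that of Il10rb was 0.069, -0.048 and 0.092 on the 3 arrays, a mean of 0.038 with an SD of 0.075. The exact sign-flip p was 0.5, also after adjustment over the 4 pairs, in a design that cannot go below 0.25. Both probes were well above background in all 6 channel readings, with spots 35.8 to 161 times as bright as background for Il10ra and 46.7 to 241 times for Il10rb. Neither gene reached a 2-fold change in the mean, and neither was called when a log2 change above 1 was required. For each, the mean lay below the median of all tested genes, which was -0.17.

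Il27ra, which encodes the receptor chain specific to IL-27, gave no usable level. Its probe was not well above background in any of the 6 channel readings. The median spot brightness was 32, 65.5 and 30 in treated RNA against local backgrounds of 21, 62 and 24, and 93, 38.5 and 80 in untreated RNA against 65, 24 and 64. The treated and untreated channel levels overlapped, at 5.87 to 6.18 and 6.08 to 6.25. The unfiltered log2 ratios were -0.06, -0.11 and -0.28, and no fold change is given for a probe at background in both groups.

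**Figure D3:**
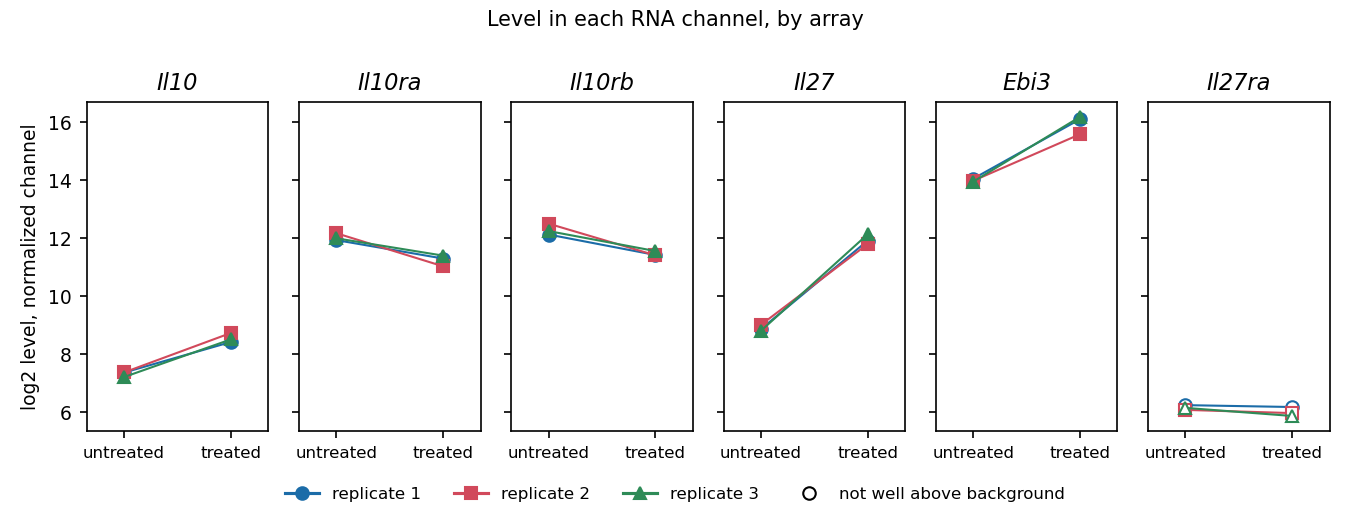
The normalized log2 level in the untreated and the treated channel (vertical axis) is drawn for each gene, with 1 line for each array and open symbols where a reading was not well above background. Levels can be compared within a panel and not between panels, since each gene has its own probe. The lines of Il10, Il27 and Ebi3 rise on all 3 arrays, those of Il10ra and Il10rb fall, and those of Il27ra stay at background between 5.87 and 6.25.

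The ratios of these genes rest on the within-array normalization, because the dyes differed in raw brightness. The median brightness of the Ebi3 spot was 29567 and 29976 in the treated Cy3 channel of replicates 1 and 3, against 38882 and 37437 in the untreated Cy5 channel. On the dye-swapped replicate 2 it was 66167 in the treated Cy5 channel and 12363 in the untreated Cy3 channel. Loess normalization removes such a trend along brightness within each array. When arrays were only centred on their median instead, the median of all tested genes moved from -0.17 to -1.03, no gene was called, and 5315 genes had an unadjusted p under 0.05.

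Under median centring the dye orientations stood apart for every member. Il27 was then 1.39, 2.81 and 1.43, Ebi3 0.21, 2.33 and 0.19, and Il10 -0.08, 1.31 and 0.07 on replicates 1, 2 and 3. The receptor chains were at -2.36, -0.96 and -2.56 for Il10ra and -2.43, -0.86 and -2.66 for Il10rb. The sign of the mean held for all 5 genes, and relative to the all-gene median of each array (-1.48, -0.06 and -1.67) the secreted subunits were higher and the receptor chains lower on every array. After loess, a dye term in the fit changed no member's call, and no member had a dye coefficient past the threshold. That coefficient was -0.27 for Ebi3, -0.26 for Il10ra, -0.20 for Il10rb, -0.20 for Il27 and 0.09 for Il10, with adjusted p between 0.259 and 0.689 in limma. Only replicate 2 was swapped, so a dye effect cannot be told apart from what is particular to that replicate. The fit with a dye term left 1 residual degree of freedom.

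**Figure D4:**
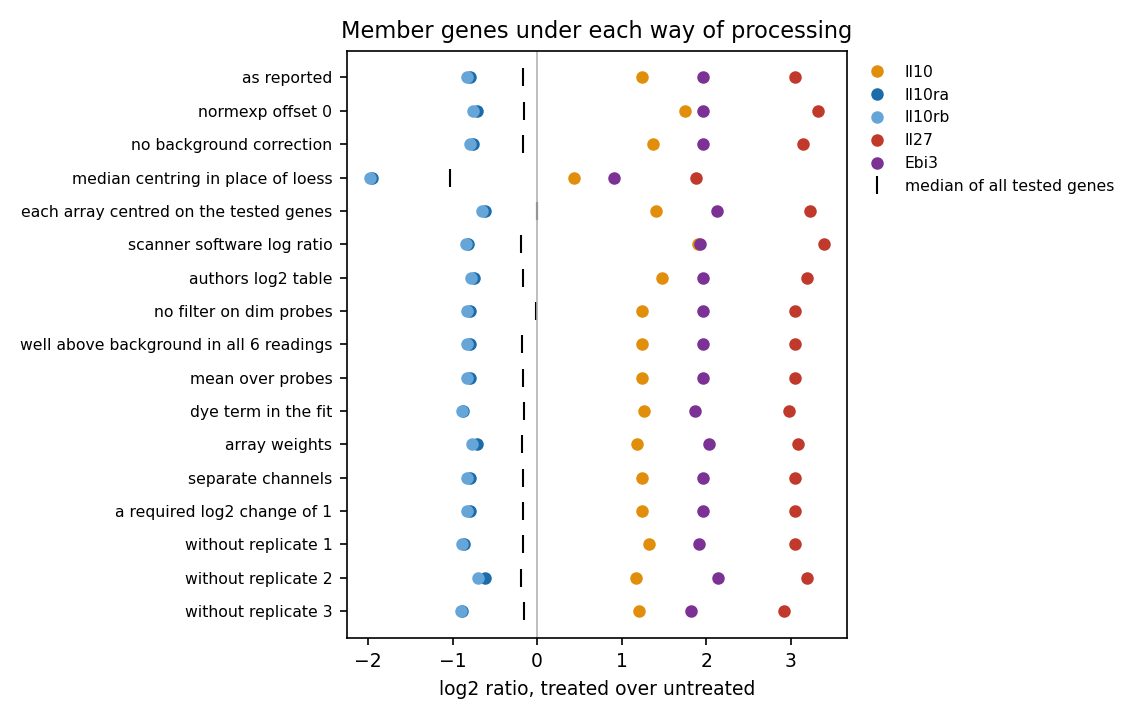
The mean log2 ratio of the 5 tested genes (horizontal axis) is plotted under each way of processing (rows), with the median of all tested genes as a black tick. The genes keep their side of 0 in every row, Il10 moves most among the rows other than median centring, and that row shifts all genes and the all-gene median to lower values.

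Genes with the most similar ratios were sought by the Euclidean distance over the 3 arrays among the other 13180 tested genes. For Il27 they were the chemokine gene Ccl4 (2.96, 2.77 and 3.32, distance 0.086) and the costimulatory receptor gene Cd40 (3.097, 2.94 and 3.30, distance 0.17). For Ebi3 they were the kinase gene Pim1 (2.12, 1.54 and 2.33, distance 0.14) and Junb (2.21, 1.73 and 2.27, distance 0.21), which encodes an AP-1 subunit. For Il10 they were the growth factor gene Pgf (1.04, 1.34 and 1.26, distance 0.050) and Csrnp3 (1.08, 1.31 and 1.28, distance 0.062). Il10ra was nearest to Ccdc82 (distance 0.051) and Phc2 (0.096), and Il10rb to Ypel3 (0.041) and Pimreg (0.041). With the scanner software's log ratio, Pimreg was at -4.03 and Il10rb at -0.84, so their closeness depends on the background treatment. Pgf (2.09) and Csrnp3 (1.66) moved up there together with Il10 (1.91). Many genes lie close together at small ratios, so the short distances around the receptor chains say less than that between Il27 and Ccl4.

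Of the other cytokines and receptors of the IL-10 family, 11 were listed and 5 passed the filter. Beside 24.5% of all tested genes called higher and 46.1% lower, 2 of these 5 were called higher. Il19, a cytokine of the IL-20 subfamily, is 1 of them, but it passed the filter through the treated channels alone, so its call is no independent sign of a rise. Its probe was well above background in all 3 treated channels and in no untreated one, with log2 ratios of 1.42, 1.80 and 1.28, and another probe gave 1.05. The mean of 1.50 became 3.32 with an offset of 0, so its size is not settled. Il20rb, a receptor chain for IL-19 and IL-20, rose by 0.85 ± 0.080 (SE, n = 3; adjusted p 2.11e-05 in limma), and by 1.33 with an offset of 0 and 1.40 with the scanner software's log ratio. Il22 (0.04), Il24 (0.10) and Ifnl3 (0.11) were not called, and the median of the list was 0.11 beside -0.17 for all tested genes. Il22 was well above background in 1 treated channel and 3 untreated ones, so its ratio is uncertain. Il24 was called higher with the scanner software's log ratio (0.61, adjusted p 0.0152 in limma). Il20, Il20ra, Il22ra1, Il22ra2 and Ifnlr1 did not pass the filter, and Ifnl2 was not analysed here.

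Genes of IL-12 family subunits and receptors were listed together with Clcf1, which was the only one called higher. Of 8 listed genes 5 were tested, and 1 was called higher and 2 lower, beside 24.5% higher and 46.1% lower of all tested genes. Il6st encodes gp130, the chain that pairs with IL-27Rα, and its log2 ratios were -1.26, -1.32 and -1.36, a mean of -1.31 ± 0.080 (SE, n = 3; adjusted p 1.98e-06 in limma). Il12rb1, a chain of the IL-12 and IL-23 receptors, fell to -0.62 with 1 probe and was at -0.60 with another. Clcf1, a cytokine gene of the gp130 family, was called higher at 0.85, but it was well above background in 1 untreated channel only, and its ratio was 2.16 with an offset of 0 and 2.93 with the scanner software's log ratio. Il23r (0.12) and Il12rb2 (0.07) were not called. Il12a, the gene of the p35 subunit that EBI3 can bind, and Il23a were well above background in none of the 6 readings, and Il12b was not analysed here. The median of the list was 0.07, and it was -0.62 when only probes above background in all 6 readings were kept and -0.14 under median centring.

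The list of kinases, STAT proteins and inhibitors of both receptors held calls in both directions, and the 2 genes called lower encode phosphatases. Of 10 listed genes 9 were tested, with 5 called higher, 2 lower and a median of 0.25 (-0.92 under median centring). The shares over all tested genes were 24.5% higher and 46.1% lower. Jak1 (-0.05) and Tyk2 (-0.02), the kinases bound to the IL-10 receptor, were not called, and Tyk2 varied between the arrays from -0.49 to 0.36. Stat3, the factor through which IL-10 acts, rose with log2 ratios of 1.40, 1.18 and 1.63, a mean of 1.40 ± 0.10 (SE, n = 3; adjusted p 4.92e-06 in limma).

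Among the inhibitors in the same list, Socs3 and Socs1 rose. Socs3, a STAT3 target that blocks gp130, had log2 ratios of 3.31, 3.19 and 3.40 and a mean of 3.30 ± 0.085 (SE, n = 3; adjusted p 3.85e-08 in limma), a 9.84-fold difference. Socs1, an inhibitor of JAK kinases, rose by 1.44 ± 0.11. The phosphatase genes Ptpn6 (-0.69) and Ptpn11 (-0.80) fell. Jak2 was at 0.65 and Pias1 at 0.25, both called higher, but both had a negative mean under median centring. The other probes of Pias1 disagreed at -0.51 and 0.53, and it was not called when replicate 2 (adjusted p 0.0594 in limma) or replicate 3 (0.116) was left out, or as the mean over probes (0.09). Pias3 did not pass the filter.

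Genes that IL-10 is known to induce in macrophages through STAT3 were the list with the highest median. Of 12 listed genes 11 were tested, 10 were called higher and none lower, where 24.5% of all tested genes were called higher and 46.1% lower. The median was 2.02 beside -0.17 for all tested genes (0.88 beside -1.03 under median centring, where no gene was called). Many of these genes are known to respond to other inflammatory stimuli as well, and no test of the list was made. The lists were chosen with earlier results of these data known, so the rank of this list is a description only. Ddit4, a regulator of mTOR signalling, was at 3.59, 4.06 and 3.77, a mean of 3.80 ± 0.10 (SE, n = 3; adjusted p 4.60e-08 in limma). Il1rn, the gene of the interleukin-1 receptor antagonist, was at 3.15, 3.27 and 3.35, a mean of 3.26 ± 0.084 (adjusted p 3.85e-08 in limma). Both exceeded the rise of Il10 itself on every array.

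The other genes of the list rose less than Ddit4, Socs3 and Il1rn. Zfp36, which encodes the mRNA decay factor tristetraprolin, rose by 2.41, Bcl3, an inhibitor of NF-kB subunits, by 2.36, and Tnip3 by 2.02, although a dimmer Tnip3 probe gave 0.27 and the mean over probes 1.15. Pim1 rose by 2.00, Nfil3 by 1.72 and Sbno2, a corepressor downstream of IL-10, by 1.28. Il4ra rose by 0.94 with 1 probe and was at 0.42 with another, and its mean was -0.21 under median centring. Etv3 was at 0.44, -0.10 and 0.50 and was not called (mean 0.28, adjusted p 0.0700 in limma), but it was called under 5 alternatives, among them without replicate 2 (0.47, adjusted p 0.00195). Cd163, the scavenger receptor often used to mark IL-10-treated macrophages, was well above background in no reading.

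**Figure D5:**
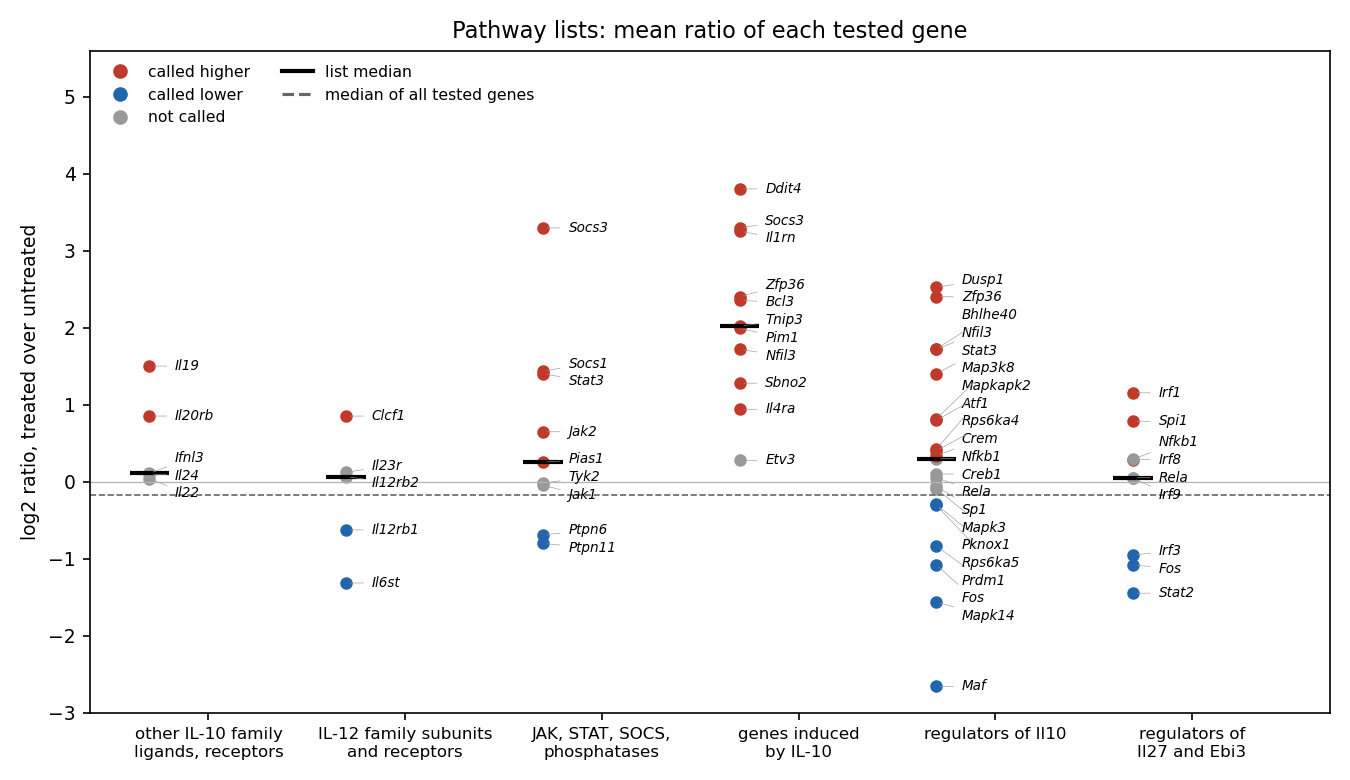
The mean log2 ratio of each tested gene (vertical axis) is plotted by list, coloured by call, with the list median as a black bar and the median of all tested genes, -0.17, as a dashed line. The lists were chosen with earlier results of these data known. The list of IL-10-induced genes has its median at 2.02 and holds no called fall, while the other lists have medians between 0.05 and 0.29, of which all but that of the IL-10 family turned negative under median centring.

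Known regulators of Il10 transcription and mRNA stability were mixed. All 21 listed genes were tested, 10 were called higher, 6 lower and 5 not, with a median of 0.29 (-0.75 under median centring). Of all tested genes, 24.5% were called higher and 46.1% lower. Maf, which encodes c-MAF, an activator of Il10 in macrophages and T cells, had the largest fall of the list, with log2 ratios of -2.87, -2.76 and -2.35 and a mean of -2.66 ± 0.11 (SE, n = 3; adjusted p 3.02e-07 in limma), a 6.31-fold difference. Il10 thus rose on the same arrays on which Maf fell. Mapk14, the p38α kinase gene, fell with a mean of -1.56 ± 0.11, and a dimmer probe gave -0.89. Fos fell with a mean of -1.08, and Prdm1, the gene of BLIMP-1, fell to -0.83.

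Among the rises in the same list were Dusp1 and Zfp36, which limit Il10 output. Dusp1, a phosphatase of p38 and JNK, had log2 ratios of 2.30, 2.84 and 2.44 and a mean of 2.53 ± 0.11 (SE, n = 3; adjusted p 4.07e-07 in limma). Bhlhe40, a repressor of Il10, rose by 1.73 ± 0.083. Nfil3 (1.72) and Stat3 (1.40), given above with other lists, belong to this list too and were called higher. Map3k8 (0.82), Mapkapk2 (0.80), Atf1 (0.42), Rps6ka4 (0.41) and Crem (0.34) were called higher but had negative means under median centring. A dimmer Crem probe gave -0.24, and the call of Crem was lost without replicate 2 (0.20), without replicate 3 (0.34), with array weights (0.25) and with the mean over probes (0.05). The call of Rps6ka4 was lost without replicate 1 (0.30, adjusted p 0.0568 in limma), and Atf1 was at 0.73 as the mean over probes. Rps6ka5 and Pknox1 were called lower at -0.30 and -0.29. Both calls were lost without replicate 1 (adjusted p 0.0713 and 0.0585 in limma) and when arrays were centred on the tested genes (-0.13 and -0.12), and that of Pknox1 also without replicate 3 (0.0814). The NF-kB gene Nfkb1 was not called at 0.29 (adjusted p 0.0543 in limma), but it was called in 8 of 16 alternatives, among them without replicate 2 (0.47, adjusted p 0.00317), and a dimmer probe gave -0.04. Rela (0.05) was not called, except without replicate 2 (0.24, adjusted p 0.0415 in limma), nor were Creb1 (0.10), Sp1 (-0.06) and Mapk3 (-0.09).

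Regulators of Il27 and Ebi3 showed no common direction either. Of 10 listed factors 9 were tested, with 3 called higher, 3 lower and a median of 0.05 (-1.04 under median centring). Calls over all tested genes were 24.5% higher and 46.1% lower. Irf1, an activator of the Il27 promoter, had log2 ratios of 1.11, 0.97 and 1.39 and a mean of 1.16 ± 0.10 (SE, n = 3; adjusted p 1.40e-05 in limma). Spi1 (0.79) and Irf8 (0.29) were called higher and had negative means under median centring. The call of Irf8 was also lost without replicate 1 (adjusted p 0.0589 in limma), without replicate 3 (0.0825) and with the scanner software's log ratio (0.0557). Stat2 fell to -1.45 ± 0.097 and Irf3 to -0.95 ± 0.080, and Irf9, their partner in interferon signalling, was at 0.05 and was not called. Fos, listed above, was the other gene called lower. Rel was well above background in 2 of the 3 treated and none of the untreated channels and was not tested.

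The identity of the cells was checked on marker genes. All 9 macrophage markers with a probe were well above background in all treated and untreated channels, and 2 of them were called higher and 7 lower (median log2 ratio -0.995). Over all tested genes, 24.5% were called higher and 46.1% lower. The summed log2 level of the macrophage markers was 17.26 to 17.56 in treated and 18.25 to 18.38 in untreated channels. T cells are another source of Il10: 3 of 6 T cell markers passed the filter and rose (Cd3e, Lck and Cd247), with a summed log2 level of 10.14 to 10.35 against 9.28 to 9.33, while Cd2, Cd3d and Cd3g were not well above background in any reading. Of 4 B cell markers 2 passed and Cd79b fell, and Ms4a1 was not well above background in any reading. Of 6 dendritic cell markers 4 passed and Zbtb46 rose (1.51), while Siglech (0.24), Itgax (0.17) and Flt3 (0.08) were not called. Their summed log2 level was 15.43 to 15.59 in treated against 15.11 to 15.35 in untreated channels. That sum is mostly Siglech, with a mean log2 intensity of 15.36 against 7.33 for Zbtb46. Clec9a and Xcr1 were not well above background in any reading. Of the other marker lists, fibroblasts had 2 of 3 tested markers higher (Dcn 0.79 and Col1a2 0.35), plasma cells had Sdc1 higher (2.51) and Xbp1 lower (-0.38), and mast cells had Tpsb2 higher (1.05) and Kit lower (-0.79). Neutrophils had 2 of 6 tested markers higher and 3 lower, and natural killer cells neither of 2. The part of other cells in the Il10, Il27 and Ebi3 ratios was not tested.

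Across the series, treated channels had 43.9% to 47.5% of probes well above background and untreated channels 53.4% to 54.3%. The ratios of the arrays correlated across genes at r = 0.943 to 0.968, where genes are not independent replicates. All 3 arrays lay on 1 slide and came from 1 scan, and with 3 arrays the precision of each ratio is limited. When each array was centred on the median of the tested genes, 51.0% of called genes were lower in place of 65.3%, and Il10ra and Il10rb were still called lower. Il22 (0.21), Il24 (0.27), Ifnl3 (0.28), Il23r (0.29), Il12rb2 (0.24), Creb1 (0.27) and Irf9 (0.22) were called higher under that centring.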

How the data were processed

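Total RNA was measured on 3 arrays, each with 1 treated and 1 untreated RNA. Arrays were scanned with Agilent Feature Extraction 10.7.3.1, per the submitters' processing notes. The deposited intensity values are, per the file headers, median spot and local background brightness in each dye, not normalized, the processed signals are background-subtracted and dye-normalized, and the log10 ratio is Cy5 over Cy3. The authors' deposited log2 table matched loess ratios of treated over untreated (r = 0.990 to 0.994 across spots, median near 0), and its background handling stays unknown.

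Median intensities were corrected with normexp (offset 50) and loess in limma 3.58.1 (R 4.3.3), with control spots at weight 0. Outlier spots (299 to 323 an array) were left out, no spot was saturated, and spots of a probe were averaged. Probes (55681) were named through RefSeq accessions of assembly GRCm38.p6, used for symbols and the promoter, while the array was designed on another build. A probe was kept when well above background in at least 3 of 6 channel readings, the brightest probe stood for a gene, and ratios were tested against 0 with lmFit and eBayes (prior degrees of freedom 6.22, residual 2, median SE 0.0885 on the log2 scale). A dye term in the model reached an adjusted p below 0.05 for 44 of 13181 genes.

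Members and lists were chosen with earlier results of these data known, so no test over a list was made. Some listed genes are not reported here and stand in no list count. Named were all members, listed genes (at least the 2 largest called rises and falls of each list) and the 2 genes nearest to each member. P-values and SEs of limma measure the spread between these arrays, with the variance of each gene drawn towards that shared across genes.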

Additional observations from a re-analysis of the deposited data

How the results depend on the processing

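The calls of the members held without each replicate in turn and under the other background, centring on tested genes, filter, probe, dye-term, weighting, separate-channel and deposited-value alternatives. Exceptions were median centring and a required log2 change above 1. Median centring called 0 genes higher and 0 lower, and so 0 members either way, at log2 ratios of 0.44 for Il10 (adjusted p 0.475), -1.96 for Il10ra, -1.98 for Il10rb, 1.87 for Il27 and 0.91 for Ebi3. A required log2 change above 1 left 575 genes called higher and 872 lower, and 0 members called lower, with Il10 (1.24, adjusted p 0.130), Il10ra (-0.79) and Il10rb (-0.83) not called. Without each replicate in turn, the ratio was 2.92 to 3.19 for Il27, 1.83 to 2.14 for Ebi3, 1.17 to 1.33 for Il10, -0.89 to -0.62 for Il10ra and -0.90 to -0.70 for Il10rb.

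Named genes outside the axis stayed on their side of the threshold without a called gene changing sign in 870 of their alternatives, were no longer called in 85, became called in 22, and had a called gene change sign in 10, all under median centring: Atf1 -0.75, Crem -0.74, Il4ra -0.21, Irf8 -0.79, Jak2 -0.51, Map3k8 -0.35, Mapkapk2 -0.32, Pias1 -0.92, Rps6ka4 -0.77 and Spi1 -0.39. All 10 still lay above the median of all tested genes there (-1.03). A block for slide or scan was not run, since all arrays shared 1 of each. Each ratio already pairs the treated and untreated RNA of 1 array, so no further replicate block was fitted. Signal over background limits Il10 and Il27ra most.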
